A study of Mus musculus with 34 samples.

Results

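A set of 7 transcription factor genes of the adipogenic cascade were followed in mouse 3T3-L1 cells: Pparg, Cebpa, Cebpb, Cebpd, Cebpg, Stat5a and Stat5b. They were taken by symbol, and each had 1 of the 17515 RefSeq rows of the RNA table. Matching the deposited gene names gave 6 of 10702 H3K4me3 promoter peaks (none named Cebpb), 72 of 87525 KDM5A peaks and 22 of 14827 KDM5C peaks (none named Cebpb or Stat5a). 3T3-L1 is a single preadipocyte line that turns into fat-storing cells when induced. The study measured RNA and histone H3 trimethylated at lysine 4 (H3K4me3) in cells depleted of KDM5 demethylases, and mapped where KDM5A and KDM5C bind. RNA and H3K4me3 each had 6 groups: cells transduced with a control hairpin (shLuc) or with hairpins against Kdm5a, Kdm5b and Kdm5c together (shKdm5ABC), at day 0, 4 hours and day 2. Every one of these groups received lentivirus and polybrene before induction, and the 4-hour and day 2 groups were induced with insulin, dexamethasone, IBMX (a phosphodiesterase inhibitor) and serum. KDM5A was mapped at day 0, 4 hours and day 2 and KDM5C at day 2, with no transduction named in the labels. Each group had 2 libraries, numbered as experiments. Whether they were separate cultures is not stated, so p-values measure the spread between these libraries, which may be technical.

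C/EBPβ and C/EBPδ are induced first after an adipogenic stimulus, and they activate the genes of PPARγ and C/EBPα, which then maintain each other and switch on the genes of the fat cell. PPARγ is a nuclear receptor, and its gene has separate start sites for the widely expressed PPARγ1 and the fat-selective PPARγ2. C/EBPγ lacks a transactivation domain of its own and pairs with other C/EBP and bZIP proteins, while STAT5A and STAT5B carry growth hormone and prolactin signals to the nucleus. KDM5 enzymes remove methyl groups from H3K4, a mark of active promoters.

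All 3 targets were lower in shKdm5ABC RNA at each time, with 38.0% to 39.7% of the shLuc level left for Kdm5c, 50.7% to 58.1% for Kdm5a and 60.2% to 63.9% for Kdm5b (largest adjusted p 0.0216, limma). Adipocyte markers (8 of 8 tested, led by Fabp4 and Lpl) had a summed log2 level of 11.52 to 11.83 in shLuc cells at day 0 and 15.08 to 15.41 at day 2, and preadipocyte markers (8 of 8 tested, led by collagens) went from 14.98 to 15.23 down to 11.86 to 12.48. Macrophage markers had 5 of 10 tested and a highest summed log2 level of 8.09, and Ptprc, Adgre1 and Itgam did not pass the filter. The tested ones were Cd14, Cd68, Lyz2, Aif1 and Csf1r, with 7.45, 5.93, 5.60, 3.15 and 1.53 in their highest library. Cd68 had a mean of 5.85 in shKdm5ABC and 4.35 in shLuc cells at day 0. Endothelial (2 of 6 tested), skeletal muscle (3 of 6), epithelial (1 of 5) and neuronal (2 of 5) markers summed to at most 5.85. The epithelial value is Krt14 and was 1.06 to 1.63 at day 0 and 4.21 to 5.53 at day 2 over both hairpins. Reads recovered in peaks were 5.78 to 10.96 M per H3K4me3 library, 1.04 to 4.55 M per KDM5A library and 0.103 to 0.120 M per KDM5C library (M, 1e6).

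Promoters of 6 of the 7 genes were found in RefSeq on GRCm38.p6, as 10 windows of 300 bases from 250 before to 50 after a start. The 4 printed here are those that the binding and RNA results turn on: the first and the last of the 3 Pparg starts, which lie 60.9 kb apart, and those of Cebpa and Cebpb. Capitals mark a C/EBP core (TTGCNNAA), a TATAAA match or a cAMP response half-site (TGACG), each searched on both strands.
Pparg first start, chr6:115360894-115361193, plus strand: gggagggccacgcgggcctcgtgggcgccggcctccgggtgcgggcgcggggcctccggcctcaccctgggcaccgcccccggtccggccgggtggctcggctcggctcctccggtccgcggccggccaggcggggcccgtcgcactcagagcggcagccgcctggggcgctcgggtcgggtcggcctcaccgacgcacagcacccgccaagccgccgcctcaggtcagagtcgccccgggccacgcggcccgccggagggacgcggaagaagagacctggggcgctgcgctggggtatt
Pparg last start, chr6:115421816-115422115, plus strand: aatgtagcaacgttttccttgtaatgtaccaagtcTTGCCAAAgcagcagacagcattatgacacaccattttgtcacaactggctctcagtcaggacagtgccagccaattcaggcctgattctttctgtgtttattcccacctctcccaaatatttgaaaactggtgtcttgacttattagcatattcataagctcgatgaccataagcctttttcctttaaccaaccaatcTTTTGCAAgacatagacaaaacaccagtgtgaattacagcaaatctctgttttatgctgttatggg
Cebpa, chr7:35119043-35119342, plus strand: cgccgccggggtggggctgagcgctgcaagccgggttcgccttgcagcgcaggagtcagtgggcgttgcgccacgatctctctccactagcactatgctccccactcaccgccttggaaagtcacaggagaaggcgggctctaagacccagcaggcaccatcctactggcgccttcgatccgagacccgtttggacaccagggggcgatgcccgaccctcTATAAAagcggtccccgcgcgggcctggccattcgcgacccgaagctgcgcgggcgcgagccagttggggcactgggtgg
Cebpb, chr2:167688665-167688964, plus strand: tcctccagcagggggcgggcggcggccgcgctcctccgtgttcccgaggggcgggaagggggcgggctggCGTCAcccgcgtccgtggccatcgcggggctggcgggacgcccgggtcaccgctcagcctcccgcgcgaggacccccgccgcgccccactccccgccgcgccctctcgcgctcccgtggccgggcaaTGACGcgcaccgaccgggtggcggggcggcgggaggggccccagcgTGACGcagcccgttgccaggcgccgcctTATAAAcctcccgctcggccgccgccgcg

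The first Pparg window held 44 CpG dinucleotides, more than 97.8% of 32851 promoter windows, while the last held 2. The last Pparg window was the only 1 of the 10 with a C/EBP core, at bases -215 and -16 from the start, and 10.8% of all windows hold at least 1. Cebpa has TATAAA at -30, where a TATA box lies, and Cebpb has it at 21, downstream of the start, and 13.6% of all windows hold it. The middle Pparg window, not printed, has TATAAA on the other strand at -29. In the Cebpb window the half-site occurs at -180, -53 and -7, with 20.8% of all windows holding 1 or more. A Stat5a window, not printed, has the half-site at 22, 32 and 42. None of the 10 windows held the full cAMP response element (TGACGTCA, 1.8% of all windows), the STAT5 motif TTCNNNGAA (8.3%) or the PPAR direct repeat of AGGNCA spaced by 1 base (0.4%). The CCGCCC motif known for the DNA-binding domain of KDM5A lay in 6 of the 10 windows, against 35.7% of all windows. These 6 windows were 62.7% to 82.7% G and C, against a median of 52.7% over all windows. The part of base composition in this count was not tested.

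Cebpb and Cebpd, the early factors, rose within 4 hours of induction. RNA levels stand on a log2 scale per kb of transcript, which allows levels to be compared between genes. Cebpb read 8.93 and 8.78 in the 2 shLuc libraries at day 0, 10.96 and 10.73 at 4 hours, and 10.45 and 9.98 at day 2. Day 0 was the lowest group with no overlap, and the increase at 4 hours was 1.99 on the log2 scale (SE 0.16, 3.97-fold, adjusted p 1.15e-05, limma with Benjamini-Hochberg adjustment over 13534 transcripts). Cebpd read 7.08 and 7.07 at day 0, 9.12 and 8.83 at 4 hours, and 8.44 and 8.50 at day 2. It rose by 1.89 (SE 0.15, 3.72-fold, adjusted p 1.31e-05), and the 4-hour libraries were above all others. From 4 hours to day 2 Cebpb fell by 0.63 (adjusted p 0.00729) and Cebpd fell by 0.50 (adjusted p 0.0197). The Cebpb decrease was 0.52 without shLuc 4-hour replicate 1 (adjusted p 0.0600) and 0.40 without shLuc day 2 replicate 2 (adjusted p 0.0657), and the Cebpd decrease lost its call without shLuc 4-hour replicate 1, day 2 replicate 1 or day 2 replicate 2 (0.36, 0.48 and 0.53; adjusted p 0.146, 0.0844 and 0.0614) and under quantile normalization (0.41, adjusted p 0.0525). Both genes stayed above day 0 at day 2, Cebpb by 1.36 and Cebpd by 1.39 (adjusted p 4.32e-05 and 3.11e-05).

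Pparg and Cebpa, the factors of the second wave, did not pass the test at 4 hours and were far higher at day 2. Cebpa read 5.63 and 5.91 at day 0, 6.00 and 5.82 at 4 hours, and 9.78 and 9.99 at day 2 in shLuc cells. Its day 0 and 4-hour libraries overlapped, and its increase by day 2 was 4.12 (SE 0.22, 17.4-fold, adjusted p 6.83e-07). Pparg read 8.08 and 8.67 at day 0, 8.34 and 8.54 at 4 hours, and 10.85 and 11.32 at day 2. The gene was already above 80.4% of tested transcripts at day 0, overlapped with that level at 4 hours, and rose by 2.71 by day 2 (SE 0.32, 6.54-fold, adjusted p 5.15e-05). Only 1 Pparg transcript row is in the table, so the RNA of its start sites is not told apart.

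The other 3 genes, Cebpg, Stat5a and Stat5b, rose by day 2, and only Stat5b fell at 4 hours. Cebpg read 7.89 and 8.27, then 7.17 and 7.65, then 9.29 and 9.82 across the 3 shLuc times, with each group apart from the next. Its day 2 increase over day 0 was 1.48 (SE 0.28, adjusted p 0.00139), and its 4-hour value of -0.67 had an adjusted p of 0.0820, or 1.44e-04 with the replicate number as a block. Stat5a read 6.24 and 6.49, then 5.97 and 5.97, then 8.10 and 7.95. It rose by 1.67 at day 2 (SE 0.18, 3.17-fold, adjusted p 2.88e-05), and its 4-hour value of -0.39 passed only with the block (adjusted p 0.103 without and 0.0448 with it). Stat5b read 6.25 and 6.15, then 5.23 and 4.99, then 6.73 and 6.49. This gene fell by 1.08 at 4 hours (SE 0.15, adjusted p 3.73e-04) and rose by 0.41 from day 0 to day 2 (adjusted p 0.0406). The latter call was lost without shLuc day 0 replicate 1, day 0 replicate 2 or day 2 replicate 1 (0.46, 0.36 and 0.29; adjusted p 0.0841, 0.167 and 0.236). Stat5a and Stat5b, which start 8.8 kb apart, were not tested against each other.

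**Figure D1:**
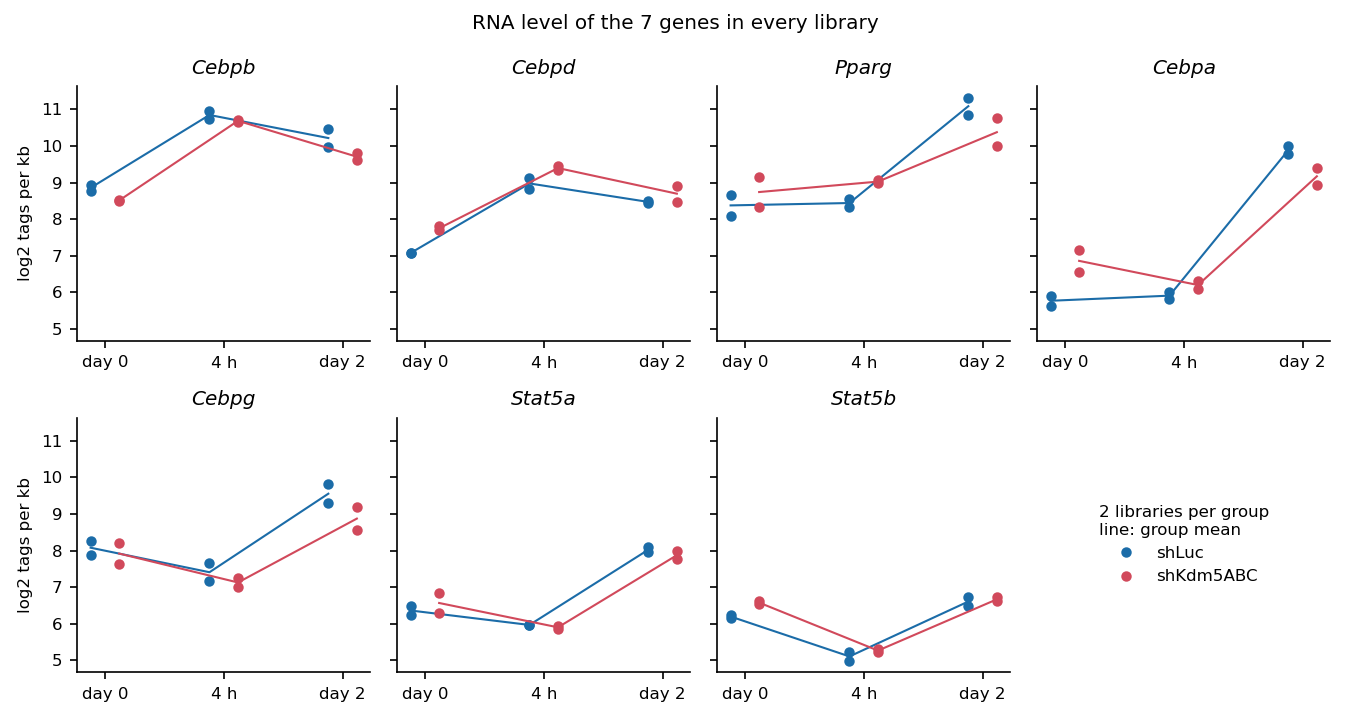
RNA level of each gene in every library (points, log2 tags per kb on the vertical axis) at day 0, 4 hours and day 2, in shLuc (blue) and shKdm5ABC cells (red), with lines through the group means of 2 libraries. Cebpb and Cebpd peak at 4 hours, and Pparg and Cebpa rise after 4 hours, from 5.91 to 9.89 for the shLuc mean of Cebpa.

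Counted over the group, 2 genes rose and 1 fell of 7 at 4 hours in shLuc cells, where 42.3% of all transcripts passed the test. With the block 5 of 7 passed, and 58.5% of all transcripts. At day 2 all 7 rose over day 0, against 55% of transcripts called in either direction, and from 4 hours to day 2 there were 5 that rose and 2 that fell (46.4% called). The order of levels in shLuc cells changed with time. At day 0 the means ran Cebpb 8.85, Pparg 8.37, Cebpg 8.08, Cebpd 7.08, Stat5a 6.36, Stat5b 6.20 and Cebpa 5.77, with libraries of Pparg and Cebpg, and of Stat5a and Stat5b, overlapping. At day 2 they ran Pparg 11.08, Cebpb 10.21, Cebpa 9.89, Cebpg 9.56, Cebpd 8.47, Stat5a 8.03 and Stat5b 6.61, where Cebpb overlapped with Cebpa and Cebpa with Cebpg. The mean of Cebpa thus moved from the lowest of the 7 to above 93.8% of tested transcripts at day 2, and that of Pparg to above 98.0%.

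In knockdown cells too the early factors rose first. At 4 hours Cebpb rose by 2.17 (SE 0.16, adjusted p 5.40e-06) and Cebpd by 1.65 (SE 0.15, adjusted p 2.26e-05), from 8.50 and 8.52 to 10.71 and 10.66 for Cebpb and from 7.80 and 7.70 to 9.46 and 9.33 for Cebpd. Stat5b fell by 1.31 (adjusted p 9.63e-05), Stat5a fell by 0.67 (0.0116), Cebpg fell by 0.79 (0.0437) and Cebpa fell by 0.66 (0.0337). Without shKdm5ABC day 0 replicate 2 the Cebpa, Cebpg and Stat5a decreases were 0.35, 0.50 and 0.41 (adjusted p 0.257, 0.262 and 0.102). All 3 calls were also lost without 4-hour replicate 2 (adjusted p 0.0591, 0.0741 and 0.0603), and those of Cebpa and Cebpg without 4-hour replicate 1 (adjusted p 0.150 and 0.178). In all 2 rose and 4 fell of 7 (46.1% of transcripts called). By day 2 there were 6 above day 0 and none below (45.2% called), led by Cebpa at 2.31 (SE 0.22, adjusted p 3.16e-05) and Pparg at 1.64 (SE 0.32, adjusted p 0.00200), and Stat5b had 0.09 (adjusted p 0.659). Cebpg was called at 0.96 (adjusted p 0.0196), but at 0.66 without shKdm5ABC day 0 replicate 1 and 0.64 without day 2 replicate 2 (adjusted p 0.149 and 0.156). From 4 hours to day 2, 5 rose and 2 fell (41.2% called), with Pparg at 1.35 (adjusted p 0.00665), or 0.98 without shKdm5ABC day 2 replicate 2 (adjusted p 0.0610).

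Before induction, knockdown cells held more Cebpa RNA. Of the 8 adipocyte markers named above, 7 had a higher shKdm5ABC mean at day 0, with Lpl lower (11.01 against 11.31). Among the 7 were Cidec (5.33 against 3.38), Adipoq (4.43 against 3.15) and Fabp4 (10.25 against 9.27). Fabp4 had an adjusted p of 0.379 in limma, or 0.0322 with the block. The summed log2 level of the 8 overlapped between hairpins, at 11.42 to 12.23 in shKdm5ABC and 11.52 to 11.83 in shLuc libraries. The part of these markers in the result was not tested. Cebpa read 6.55 and 7.17 in the shKdm5ABC libraries at day 0, both above the shLuc values of 5.63 and 5.91, a difference of 1.09 (SE 0.22, 2.13-fold, adjusted p 0.0466). That call was lost without shLuc replicate 1 (0.95, adjusted p 0.225), shLuc replicate 2 (1.23, adjusted p 0.163) or shKdm5ABC replicate 2 (0.78, adjusted p 0.240), and had an adjusted p of 0.00204 with the block. Cebpa was the only 1 of 7 called at day 0, where 1.51% of transcripts were called. Cebpd, at 7.80 and 7.70 against 7.08 and 7.07, was higher in both libraries by 0.67 (SE 0.15, adjusted p 0.0663, 0.00453 with the block). Pparg had 8.32 and 9.16 against 8.08 and 8.67, groups that overlapped (0.37, SE 0.32, adjusted p 0.750), and Cebpb had 8.50 and 8.52 against 8.93 and 8.78 (-0.34, adjusted p 0.406). Stat5b, Stat5a and Cebpg had differences of 0.39, 0.21 and -0.16 (adjusted p 0.320, 0.750 and 0.921).

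At 4 hours none of the 7 passed (1.44% of transcripts called), with Pparg at 8.98 and 9.07 against 8.34 and 8.54, a difference of 0.59 (SE 0.32, adjusted p 0.494). With the block Pparg and Cebpd passed (adjusted p 0.0419 and 0.0370), the latter at 9.46 and 9.33 against 9.12 and 8.83. The Cebpa difference was 0.29 (SE 0.22, adjusted p 0.684).

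At day 2 none of the 7 passed the test between hairpins, against 9% of transcripts. Pparg read 10.00 and 10.75 against 10.85 and 11.32 (-0.71, SE 0.32, adjusted p 0.198), which leaves 61.3% of the shLuc level. Cebpa read 8.94 and 9.40 against 9.78 and 9.99 (-0.72, SE 0.22, 60.9%, adjusted p 0.0743). Cebpb read 9.80 and 9.61 against 10.45 and 9.98 (-0.51, SE 0.16, adjusted p 0.0709), and without shLuc day 2 replicate 2 its value was -0.74 (adjusted p 0.0481). Cebpg had 8.56 and 9.19 against 9.29 and 9.82 (-0.68, SE 0.28, adjusted p 0.167). With the block these 4 passed (adjusted p 0.00793, 0.00673, 0.00508 and 8.17e-04 in the order given). The counts over all transcripts moved as well with the block, from 204 to 1277 at day 0 (9.44%), from 195 to 1310 at 4 hours (9.68%) and from 1218 to 3809 at day 2 (28.1%). Cebpd, Stat5a and Stat5b overlapped between hairpins (0.23, -0.15 and 0.06). Adipocyte markers summed to 14.21 to 14.96 in these knockdown libraries against 15.08 to 15.41 in shLuc, and preadipocyte markers to 12.67 to 13.08 against 11.86 to 12.48. The adipocyte sum rests mostly on Fabp4 (mean 13.27 against 14.25) and Lpl (12.91 against 13.37). Cd36 had 8.67 against 9.83 and Cidec 11.20 against 11.66. The other adipocyte markers were closer, with Lipe at 11.03 against 11.19 and Plin1 at 8.41 against 8.56. Adipoq was the higher in knockdown cells (9.98 against 9.83), and Retn had 9.53 in both. The part of these markers in the result was not tested, and in these bulk libraries fewer differentiated cells and less RNA per cell cannot be told apart.

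The change of the knockdown difference between day 0 and day 2 was largest for Cebpa, at -1.81 (SE 0.32, adjusted p 0.0527). Without shKdm5ABC day 2 replicate 2 it was -2.04 (adjusted p 0.0298), and with the block its adjusted p was 0.00164. Pparg had -1.08 (SE 0.45, adjusted p 0.369) and Cebpg -0.52 (SE 0.40, adjusted p 0.713), with 0.0183 and 0.0429 under the block. None of the 7 passed without the block, against 0.31% of transcripts, and 3 passed with it, against 7.67%. Between day 0 and 4 hours none of the 7 and 0% of transcripts passed in limma, with 501 transcripts at an unadjusted p under 0.05 and 8 called with the block.

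**Figure D2:**
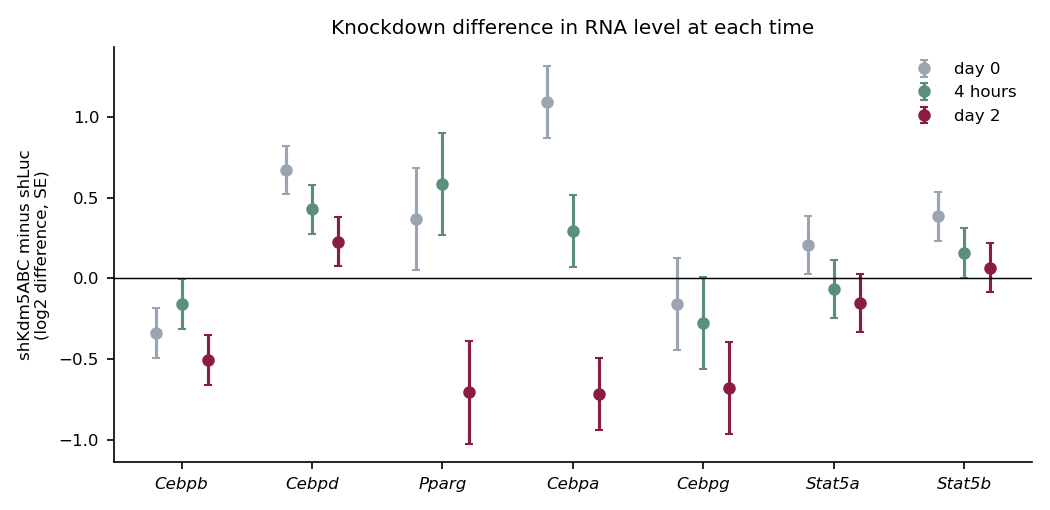
Difference in RNA level between shKdm5ABC and shLuc cells (log2, with the SE of the fit as bars) for each gene at day 0, 4 hours and day 2, from 2 libraries per group. Cebpa is at 1.09 at day 0 and at -0.72 at day 2, and Pparg goes from 0.37 to -0.71.

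Genes that work with or on the 7 factors were taken from 6 lists. The counts below stand beside these shares of all transcripts called in either direction. Against day 0 they were 42.3% at 4 hours and 55% at day 2 in shLuc cells, and 45.2% at day 2 in knockdown cells. Between hairpins they were 1.51% at day 0, 1.44% at 4 hours and 9% at day 2, or 9.44%, 9.68% and 28.1% with the block. Of 24 tested target genes of PPARγ and C/EBPα, 21 rose and 1 fell by day 2 in shLuc cells (median 4.51, against -0.01 over all genes), and 21 rose and 1 fell in knockdown cells (median 3.69). Lipe, the hormone-sensitive lipase, rose by 5.58 in shLuc cells (SE 0.35, adjusted p 1.27e-06) and by 4.30 in knockdown cells (adjusted p 1.27e-05), and Adipor2, an adiponectin receptor, by 3.71 and 2.87. Between hairpins at day 2 none of the 24 passed (median -0.40, against -0.003 over all genes). With the block 7 were lower, where 28.1% of all transcripts were called. Fabp4, a fatty acid carrier, had -0.99 (SE 0.43, adjusted p 0.183) and Lpl, lipoprotein lipase, -0.47 (SE 0.22, adjusted p 0.224). At day 0 the same list had a median of 0.72, with 0 called. With the block 3 were higher, where 9.44% of all transcripts were called.

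Among 20 tested inhibitors of these factors, 3 rose and 13 fell by day 2 in shLuc cells (median -1.05) and 2 rose and 10 fell in knockdown cells (median -0.57). Between hairpins at day 2, 4 were higher and none lower (median 0.36), where 9% of all transcripts were called. With the block there were 7 higher and 1 lower, where 28.1% of all transcripts were called. Snai2, a repressor of the Snail family, was higher by 1.87 (SE 0.32, adjusted p 0.00843), Wnt6, an anti-adipogenic Wnt ligand, by 1.72 (adjusted p 0.0381), Twist1 by 0.93 (adjusted p 0.0242) and Foxo3 by 0.71 (adjusted p 0.0426). Ddit3, which encodes the C/EBP-blocking protein CHOP and also stands in the list of bZIP partners, fell by 1.78 at 4 hours in shLuc cells and was lower by knockdown at day 0 (-1.70, SE 0.19, adjusted p 0.00385).

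Activators upstream of Pparg and Cebpa had 18 tested members, of which 5 rose and 5 fell at 4 hours and 9 rose and 5 fell by day 2 in shLuc cells (medians 0.13 and 0.49). Klf5, which acts between C/EBPβ and Pparg, rose by 3.44 at 4 hours (SE 0.15, adjusted p 4.36e-07), and was higher in knockdown cells at day 0 by 1.22 (SE 0.15, adjusted p 0.00583) and at day 2 by 0.65 (adjusted p 0.0282). Ebf1 was higher by 0.73 at day 2 (adjusted p 0.0191). Without the block Klf5 and Ebf1 were the only members of the list called between hairpins. With the block 2 were higher at day 0, 1 higher and 1 lower at 4 hours, and 4 higher and 1 lower at day 2. In the same fit 9.44%, 9.68% and 28.1% of all transcripts were called.

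Partners and cofactors of PPARγ had 17 tested members, with 7 higher and 4 lower at day 2 in shLuc cells (median 0.17). Rxra, which encodes its dimer partner RXRα, rose by 1.67 (SE 0.16, adjusted p 1.62e-05), and by 1.24 in knockdown cells (adjusted p 2.04e-04). Between hairpins at day 2 the coactivator genes Ppargc1a and Ncoa3 were higher by 1.40 and 0.61 (adjusted p 0.0365 and 0.0187). They were the only 2 of 17 called, where 9% of all transcripts were called. With the block 3 were higher and 2 lower, where 28.1% of all transcripts were called.

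STAT5 pathway and feedback genes had 20 tested members, with 10 higher and 2 lower at 4 hours in shLuc cells (median 0.41) and 6 higher and 8 lower at day 2. Socs2 rose by 1.84 and Socs3 by 1.37 at 4 hours (adjusted p 2.28e-04 and 1.20e-04), and both encode feedback inhibitors of JAK and STAT signalling. At day 2 Socs3, Socs1 and Il6st were higher in knockdown cells by 1.21, 1.38 and 0.67 (adjusted p 0.00278, 0.00602 and 0.0274), where 9% of all transcripts were called. With the block 6 genes were higher, where 28.1% of all transcripts were called. Of 12 tested C/EBP relatives and bZIP partners, 4 rose and 6 fell at 4 hours, led by Nfil3 at 3.09 and Dbp at -3.24. Atf5 was lower in knockdown cells at each time, by -1.38, -0.89 and -0.48 (adjusted p 0.00164, 0.0118 and 0.0436). Of the 12 between hairpins, 2 were lower at day 0, 1 lower at 4 hours, and 2 higher and 1 lower at day 2. The medians were -0.25, 0.06 and 0.14, and 1.51%, 1.44% and 9% of all transcripts were called. With the block 1 was higher and 4 lower at day 0, 2 lower at 4 hours, and 3 higher and 4 lower at day 2. In that fit 9.44%, 9.68% and 28.1% of all transcripts were called.

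The genes closest in pattern were found by the root mean square difference of centred log2 levels over the 12 RNA libraries, among 11691 transcripts with a mean of at least 3. For Cebpb they included Ier2 and Higd1a (0.17 and 0.18, with Pearson r of 0.98 for each). Cebpd was nearest to Tle1, Mical3 and Snora65 (0.16, 0.22 and 0.23). For Pparg the nearest were Scp2, Sfxn1 and Cers4 (0.26, 0.27 and 0.31), and for Cebpa Mgst3, Arxes2 and Syn2 (0.31, 0.34 and 0.36, r 0.98 to 0.99). All libraries share 2 replicate series and the same time course, and these values are a description.

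In tags per peak, the strongest KDM5A peak of the 7 genes lay at Cebpd. Each value counts the tags of a library within a peak after the authors' scaling for depth, with mm9 positions, and 1 read was worth 0.568 to 2.58 tags. The Cebpd peak at chr16:15886657-15890702, centred 1300 bp into the gene, held 419 and 195 tags at day 0, 422 and 248 at 4 hours and 520 and 331 at day 2, over 46.8 in the input. Its mean of 355.9 was above 97.8% of all KDM5A peaks and 85.0% of those within 1 kb of a start. The next highest were the Stat5a peak 837 bp downstream of a start (mean 136.6), the 7011 bp wide Cebpa peak at 2092 bp (132.8), Cebpg at 153 bp (109.4), Cebpb at -849 bp (94.6) and Stat5b at -170 bp (87.7). In the order given, the input held 18.9, 14.4, 9.9, 12.6 and 8.1 tags in them. Peaks were not ranked by their tags over input. Cebpb also had a peak at -3805 bp (70.0). The Pparg peaks at its first start, at -175 and 936 bp, held 26.1 and 30.5 tags, above 19.6% and 20.7% of peaks within 1 kb of a start. The input held 0.9 and 3.6 tags in these Pparg peaks. Weaker peaks near a start were those of Stat5a at -644 bp (13.4) and Stat5b at -229 bp (7.6). Peak widths ran from 500 to 7011 bp, and per kb of peak the order differed, with 88.0 tags at Cebpd, 81.6 at Cebpb -3805, 68.9 at Cebpg, 48.0 at Stat5a, 45.7 at Pparg -175, 27.9 at Cebpb -849 and 18.9 at the wide Cebpa peak. Replicate 2 was lower than replicate 1 at each time in the Cebpd peak, and the day 0 library of replicate 2 had 1.94 M tags in all peaks, the lowest of the 6 (highest 4.25 M).

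The number of KDM5A peaks named for each gene was 20 for Cebpg, 14 for Pparg, 10 for Stat5a, 9 for Cebpa, 7 for Stat5b and 6 each for Cebpb and Cebpd, against a median of 3 per gene with a peak. At Pparg the highest peak lay 58.5 kb past the downstream start, with 44.9 and 32.4 tags at day 0, 60.3 and 23.2 at 4 hours and 34.0 and 33.2 at day 2. The Pparg peak 2458 bp past the downstream start held 16.6 and 15.3 tags at day 0, 46.9 and 41.3 at 4 hours and 27.2 and 30.9 at day 2, with no overlap between the times. Its 4-hour difference of 1.41 on the log2(tags + 1) scale (SE 0.59) had an adjusted p of 0.713. No KDM5A peak of the 72 passed the limma test at 4 hours or day 2 against day 0, or at day 2 against 4 hours, where 0.0606%, 0.173% and 0.607% of all peaks were called. At an unadjusted p under 0.05 there were 4, 4 and 10 of the 72, or 5.56%, 5.56% and 13.9%, near the 5.23%, 6.34% and 11% of all peaks, and 0 passed in edgeR on the recovered reads. Median differences over the 72 peaks were 0.17, 0.62 and 0.47, beside 0.18, 0.37 and 0.19 over all peaks. At day 2 against 4 hours 4 of the 72 passed without the 4-hour library of replicate 1, where 1.99% of all peaks passed.

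In tags per peak, KDM5C at day 2 was highest at Cebpa and at the downstream start of Pparg. The Cebpa peak at chr7:35915888-35918718, 12991 bp downstream of its start, held 91.6 and 45.5 tags over 5.40 in the input, rank 194 of 14827. The other 4 Cebpa peaks between 3466 and 25079 bp had means of 16.9 to 35.3. The Pparg peak at chr6:115373762-115375102 lay 2348 bp past the downstream start and held 67.9 and 57.8 tags over 4.50 in the input, rank 239. The KDM5C peak nearest the first Pparg start lay 4783 bp from it, and the other 5 Pparg peaks had means of 10.3 to 23.4. Cebpg had 9 peaks, the highest at 17858 bp with 47.5 and 29.5 tags. Cebpd had 1 peak at -46 bp with 40.7 and 12.3 tags, and Stat5b 1 at 18815 bp with 17.0 and 7.38. Per kb of peak the order differed, with 53.0 at Cebpd, 50.6 at Cebpg 14315, 46.9 at the leading Pparg peak and 24.2 at the 2830 bp wide leading Cebpa peak. In 19 of the 22 peaks replicate 1 was the higher, and 1 read was worth 3.39 tags in that library and 1.23 in replicate 2, so these peaks rest on few reads.

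Of these 22 KDM5C peaks, 14 (63.6%) overlapped a KDM5A peak by at least 1 bp, against 43.0% of all KDM5C peaks, and 3 (13.6%) overlapped an H3K4me3 promoter peak (17.0% of all). In the other direction 14 of the 72 KDM5A peaks (19.4%) overlapped a KDM5C peak, against 7.1%, and 9 (12.5%) overlapped an H3K4me3 peak, against 14.0%. The leading KDM5C peaks of Pparg and Cebpa were among the 14. Peaks of a gene share their neighbourhood, and Cebpa and Cebpg start 62.7 kb apart, so these shares describe a few loci.

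**Figure D3:**
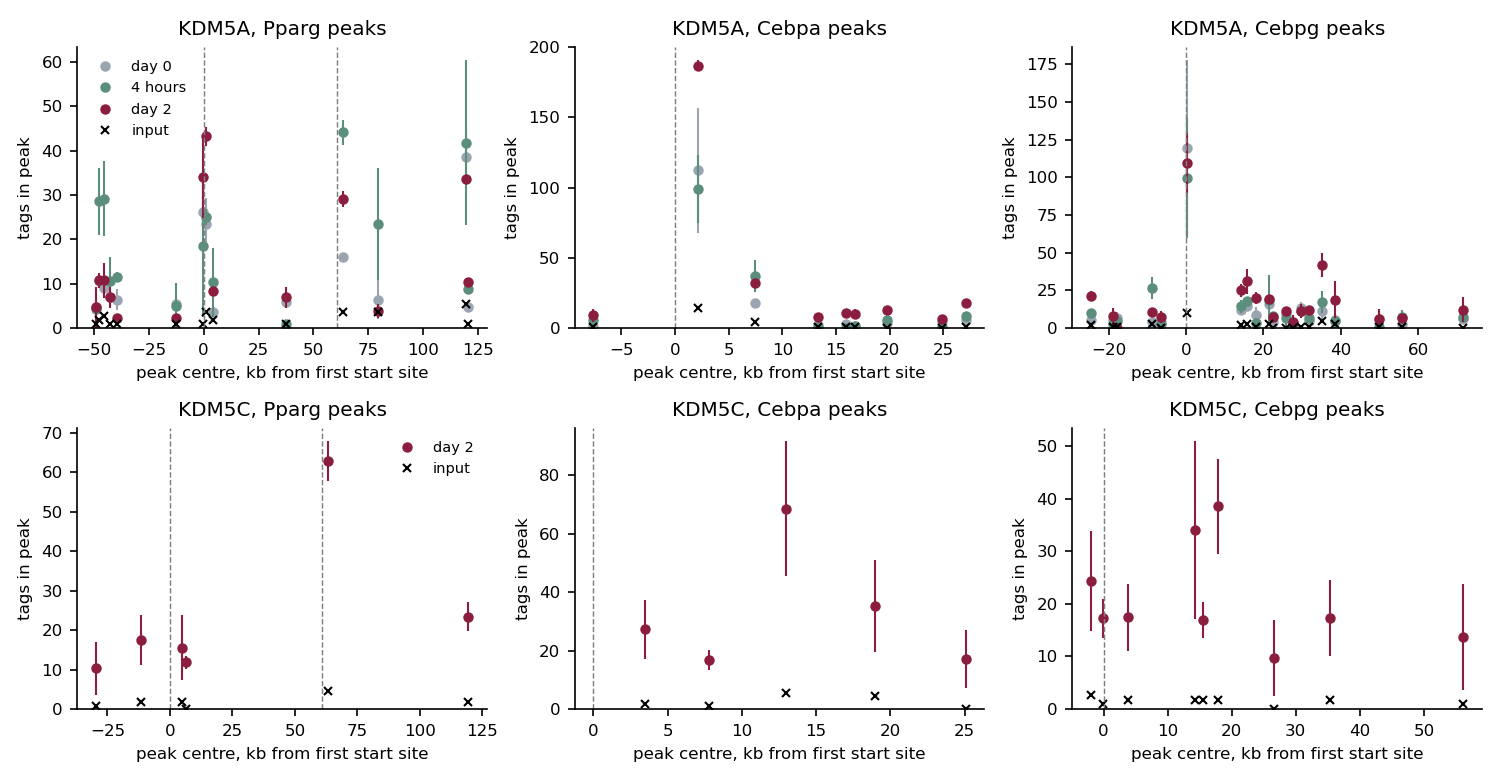
Tags in each KDM5A peak (upper row, day 0, 4 hours and day 2) and KDM5C peak (lower row, day 2) named for Pparg, Cebpa and Cebpg, against the distance of its centre from the first start site in kb. Points are means, lines span the 2 libraries, crosses are the input and dashed lines are start sites. In tags per peak KDM5A is highest beside the Cebpa and Cebpg starts, and KDM5C at 12991 bp from the Cebpa start and beside the downstream Pparg start.

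The H3K4me3 column labels go against the data in part, so each H3K4me3 group is given below as the libraries labelled with it. Tags in all promoter peaks were 7.88 to 8.32 M in the libraries labelled shLuc 4 hours, shKdm5ABC day 0 and shKdm5ABC day 2, and 6.56 to 6.81 M in the other 3 groups. Promoters of the 150 transcripts that rose most in shLuc RNA at 4 hours (115 peaks) had mean log2 tags, relative to the column median, of 0.00 to 0.14 in the libraries labelled shLuc day 2, shKdm5ABC day 0 and shKdm5ABC day 2. In those labelled shLuc 4 hours and shKdm5ABC 4 hours they had -0.66 to -0.49, and in those labelled shLuc day 0 -1.06 and -0.91. For promoters of the 150 that rose most by day 2 (89 peaks), the libraries labelled shKdm5ABC 4 hours and shKdm5ABC day 2 had -0.47 to -0.26, and those labelled shLuc day 2 had -1.47 and -1.40. In those labelled shLuc day 0 they had -1.87 and -1.73, so that within the shLuc labels both sets of promoters were higher at the later time of their RNA increase than at day 0, as labelled. Other values within the shLuc labels did not follow the RNA. For the day 2 risers, the libraries labelled shLuc 4 hours had -1.40 and -1.33, at or above those labelled shLuc day 2. Promoters of the 150 that fell most at 4 hours (125 peaks) had -0.38 and -0.45 in the libraries labelled shLuc 4 hours. That was above the -0.67 and -0.62 in those labelled shLuc day 0. Promoters of the 150 that fell most by day 2 (115 peaks) were lowest in the libraries labelled shKdm5ABC 4 hours (-3.35 and -3.05), followed by shLuc day 2 (-2.04 and -1.88) and shKdm5ABC day 2 (-1.79 and -1.57). The libraries labelled shLuc 4 hours (-0.72 and -0.94) stood above those labelled shLuc day 0 (-1.27 and -1.27). This check was chosen after the values were seen, no library was moved to another group, and the cause was not tested. Every direction between H3K4me3 groups below holds for the labels only.

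**Figure D4:**
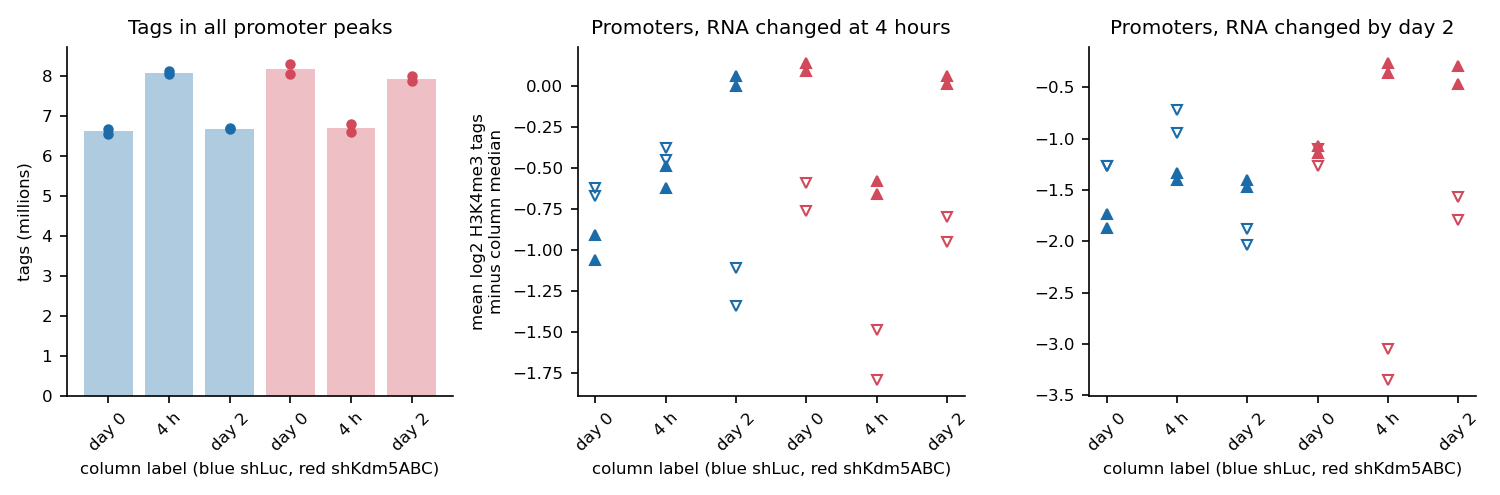
Left, tags in all H3K4me3 promoter peaks (M; points are libraries and bars means) by column label. Middle and right, mean log2 H3K4me3 tags minus the column median at promoters of the 150 transcripts that rose (filled) or fell (open) most in shLuc RNA at 4 hours or by day 2, with the libraries labelled shLuc day 2 at -1.47 and -1.40 for the day 2 risers.

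Among the H3K4me3 peaks, Cebpd had the most tags (mean 1777, rank 274 of 10702) and Cebpa was the widest at 6401 bp, wider than 98.0% of peaks, followed by Cebpd at 4556 bp and Stat5a at 4410 bp (median of all 2399 bp). Cebpa, Cebpg, Pparg, Stat5a and Stat5b had means of 799.5, 759.4, 643.4, 560.1 and 517.3. The Pparg peak, chr6:115309910-115312698, spans the first start, and none was named for the downstream start. A 6819 bp peak at chr2:167513590-167520409, named in the table for A530013C23Rik and so no member, spans the Cebpb start. It held 2093 and 1921 tags in the libraries labelled shLuc day 0, 2508 and 2395 in shLuc 4 hours, and 2805 to 3938 in the other 4 groups.

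Pparg held 332 and 430 tags in the libraries labelled shLuc day 0, 838 and 933 in shLuc 4 hours, 343 and 368 in shLuc day 2, 926 and 899 in shKdm5ABC day 0, 428 and 563 in shKdm5ABC 4 hours, and 780 and 882 in shKdm5ABC day 2. The 3 high groups are the same 3 that had the most tags over all promoters, and they do not overlap with the low ones. Cebpa held 300 and 484, 804 and 1195, and 356 and 439 tags in the libraries labelled shLuc day 0, 4 hours and day 2, and 950 and 1120, 914 and 900, and 1040 and 1094 in those labelled shKdm5ABC. Here the libraries labelled shLuc day 0 and shLuc day 2 stood below the other 8. Stat5a had the same split, with 337 to 383 tags in those 4 libraries and 577 to 786 in the others. Cebpd ranged from 1378 and 1435 in the libraries labelled shLuc day 0 to 2138 in one labelled shKdm5ABC day 0. Cebpg (457 to 934) and Stat5b (338 to 703) overlapped between most groups, and in Stat5b replicate 2 was the higher in all 6 groups.

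**Figure D5:**
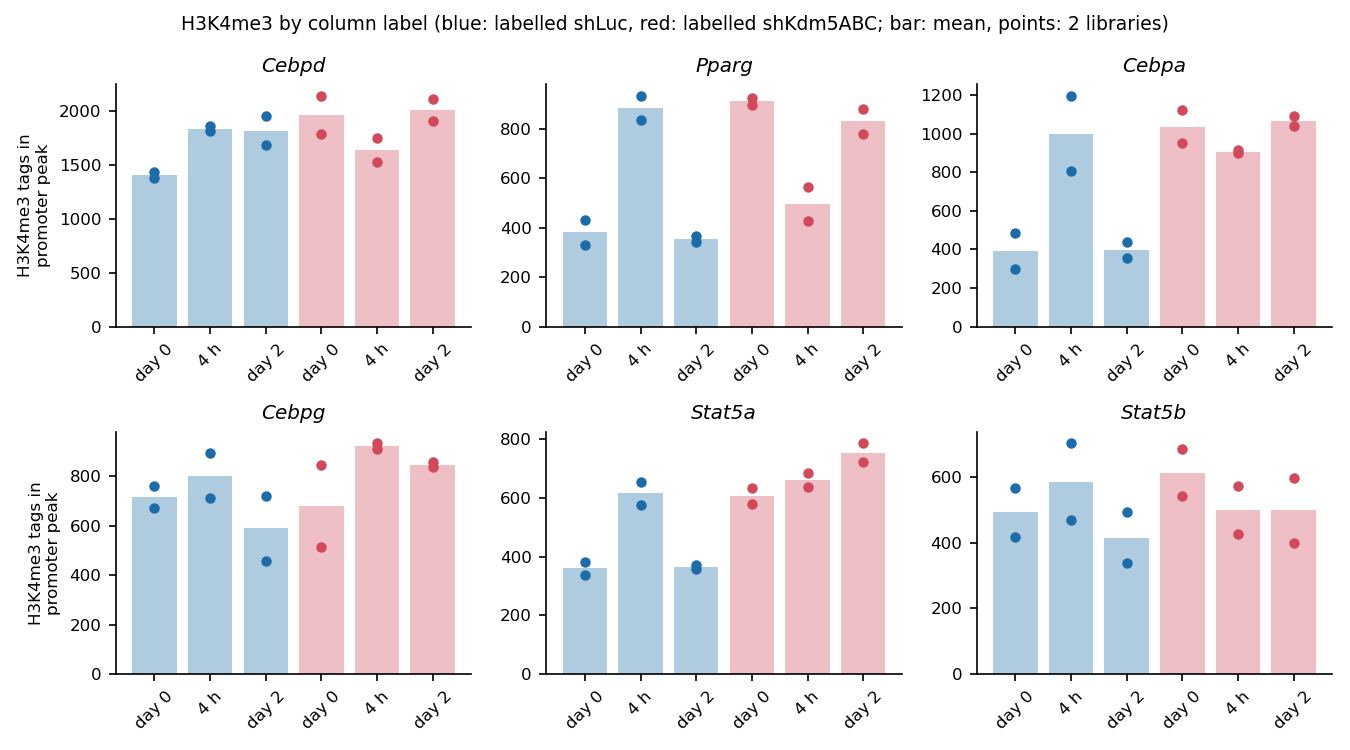
H3K4me3 tags in the promoter peak of 6 genes (vertical axes start at 0) by column label, with libraries as points and means as bars, blue for shLuc and red for shKdm5ABC labels. Pparg is high in the libraries labelled shLuc 4 hours, shKdm5ABC day 0 and shKdm5ABC day 2, from 780 to 933 tags.

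Tested by label, Pparg was higher in the libraries labelled shKdm5ABC than in those labelled shLuc by 1.27 at day 0 (SE 0.16, adjusted p 7.97e-04), lower by -0.85 at 4 hours (adjusted p 0.00238) and higher by 1.22 at day 2 (adjusted p 0.00132). Cebpa differed by 1.44 and 1.43 at day 0 and day 2 (adjusted p 0.00225 and 0.00296), Stat5a by 0.75 and 1.04 (0.00196 and 6.62e-04) and Cebpd by 0.47 at day 0 (0.0143). The Cebpd call was lost without the libraries labelled shKdm5ABC day 0 replicate 1, shLuc day 0 replicate 1 or shLuc day 0 replicate 2 (0.34, 0.50 and 0.44; adjusted p 0.110, 0.0604 and 0.0638). The median over all peaks was itself shifted, by 0.29, -0.23 and 0.25 at the 3 times. After quantile normalization, which removes that shift, Pparg had 0.98, -0.59 and 0.94, Cebpa 1.14 and 1.16, and Stat5a 0.45 and 0.76, all past the test, while Cebpd had 0.15 (adjusted p 0.251). In all 4 of 6 were higher at day 0 (32.9% of peaks called), 1 lower at 4 hours (35.9%) and 3 higher at day 2 (24%). Over all peaks 3499 were higher and 21 lower at day 0 (571 and 213 after quantile normalization), 173 and 3666 at 4 hours (1231 and 1588), and 2545 and 26 at day 2 (390 and 96). With the block the members called were 5, 1 and 5, where 6470, 6231 and 5683 of the 10702 peaks were called.

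Between the labelled times, 4 of 6 were higher in the libraries labelled shLuc 4 hours than in shLuc day 0 (27.9% called), none differed between shLuc day 2 and day 0 (1.97%), and 3 were lower in shLuc day 2 than in shLuc 4 hours (32.3%). With knockdown labels 1 was lower at 4 hours than at day 0 (36%), none differed between day 2 and day 0 (0.346%) and 1 was higher at day 2 than at 4 hours (29.6%). Pparg was among those called in each of these 4 comparisons with a call, at 1.22, -1.31, -0.89 and 0.76 (adjusted p 0.00186, 5.50e-04, 0.00174 and 0.00617). The last was 0.56 without the library labelled shKdm5ABC 4 hours replicate 1 and 0.67 without shKdm5ABC day 2 replicate 2 (adjusted p 0.0604 and 0.0539), and 0.51 after quantile normalization (adjusted p 0.0569). Cebpd, at 0.38 in the first comparison (adjusted p 0.0394), lost its call without any 1 of the 4 libraries (adjusted p 0.108 to 0.139) and after quantile normalization (0.11, adjusted p 0.518), as did Stat5a after it (0.48, adjusted p 0.0667). With the block the counts were 5, 1, 5, 4, 2 and 2, where 59.3%, 15.4%, 60%, 58.6%, 17.5% and 50.7% of all peaks were called. The labelled knockdown difference changed from day 0 to 4 hours in 4 of 6 (46.9% called) and from day 0 to day 2 in none (0.766%, or 2 with the block, where 11.8% of all peaks were called).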

How the data were processed

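RNA, H3K4me3, KDM5A and KDM5C libraries of mouse 3T3-L1 cells were used, 2 per group, and a further input library was not analysed here. The authors deposited RNA as log2 values per kb of RefSeq transcript, and the normalization and pseudocount are not given in the sources used here. The ChIP values are coverage signal, tags per merged peak scaled to a common total, as deposited by the authors. The submitters' processing notes name Bowtie2 (version written as 0.12.8), Subread, DESeq2, STAR, HOMER and mm9, with no roles given. Symbols came from RefSeq for 17249 rows and from the peak tables for 148, and 118 stayed unnamed. All value columns were matched to samples by name.

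RNA rows with a log2 level of at least 1 in at least 2 libraries were tested. ChIP tags were taken as log2(tags + 1), so fold changes of low peaks are understated. Each assay had 1 limma fit over all groups (limma 3.58.1 in R 4.3.3, mean-variance trend, Benjamini-Hochberg adjustment over all features, threshold 0.05), tested on simulated data. With 2 against 2 libraries an exact permutation test of a single value cannot go below 0.333. In the KDM5A fit the errors of a peak rest on the trend over all peaks. Deviations of same-numbered libraries correlated at 0.381 to 0.657 in RNA and 0.504 to 0.790 in H3K4me3 (15 pairs of groups each). The main fit holds no pairing, and only results given with the block use the number. The labels give the number of an experiment, and that it pairs libraries is read from the data.

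The alternatives were a replicate block, only the compared groups, no trend, quantile normalization, no RNA filter, a pseudocount of 8 or a mean of at least 20 tags for ChIP, and each library left out. edgeR 4.0.16 on KDM5A reads recovered from the tag steps was added after seeing the data. The genes, lists and tests were chosen with earlier results of these data known. Beside the 7 genes, the text names up to 4 called genes per list and comparison (2 by level where none was called), the 3 nearest patterns (1 of those of Cebpb is not reported here), and peaks by tags. Promoter sequences are RefSeq's, GRCm38.p6, and Cebpd has no entry. RNA depth is unknown.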

Additional observations from a re-analysis of the deposited data

Results flagged for a closer look

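In RNA, the Cebpa difference between hairpins took opposite signs at the 2 ends of the time course. Both shKdm5ABC libraries lay above both shLuc libraries at day 0 and below them at day 2, a change of -1.809 on the log2 scale (limma, adjusted p 0.0527, or 0.00164 with the replicate block).

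In H3K4me3 the difference between the labelled hairpins changed from day 0 to 4 hours in 4 promoter peaks. The change was -2.117 for Pparg (adjusted p 6.38e-05, limma), -1.548 for Cebpa (0.00348), -0.646 for Stat5a (0.00997) and -0.638 for Cebpd (0.0105), while the median over all peaks was -0.52. After quantile normalization the values were -1.57, -1.07, -0.10 and -0.08, with adjusted p of 7.05e-04, 0.0293, 0.645 and 0.609. The H3K4me3 column labels go in part against the RNA time course, so these values hold for the labels only.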

How the results depend on the processing

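The counts below are members called. With the replicate block the RNA counts for shKdm5ABC against shLuc went from 1, 0 and 0 at day 0, 4 hours and day 2 to 2, 2 and 4, that for shLuc 4 hours against day 0 from 3 to 5, and that for the day 2 change of the knockdown difference from 0 to 3. At day 0 the count of 1 became 0 with only the compared groups, without the trend or without the filter, and 2 after quantile normalization. Leaving out 1 library gave 0 to 1 at day 0, 0 to 1 at day 2, 3 to 6 for shKdm5ABC 4 hours against day 0 (6 with all), and 0 to 1 for the day 2 change of the knockdown difference.

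In H3K4me3 the block moved the day 2 hairpin count from 3 to 5, shLuc day 2 against day 0 from 0 to 1 and against 4 hours from 3 to 5, shKdm5ABC 4 hours against day 0 from 1 to 4, day 2 against day 0 from 0 to 2 and against 4 hours from 1 to 2, and the day 2 change of the difference from 0 to 2. Quantile normalization gave 2 for the 4-hour hairpin contrast (1), 2 for shLuc 4 hours against day 0 (4, and 1 with only the compared groups), 2 and 0 for shKdm5ABC 4 hours against day 0 and day 2 against 4 hours (1 each), and 2 for the 4-hour change of the difference (4). Over all peaks these contrasts had, in the order given, 1231 higher and 1588 lower, 223 and 18, 1266 and 1601, 765 and 161, and 1525 and 1727. Without quantile normalization they had 173 and 3666, 2980 and 1, 120 and 3731, 3167 and 6, and 32 and 4990. With only the compared groups 274 of all peaks were called for shLuc 4 hours against day 0. Leaving out 1 library moved the counts for shKdm5ABC 4 hours against day 0 and for day 2 against 4 hours, and calls over all peaks moved too.

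For KDM5A the replicate numbers correlated at 0.047 to 0.333 and share only a number. The block gave 1 member in each contrast (0 without it), where 0.823%, 0.960% and 2.66% of all peaks were called. Leaving out 1 library moved the count at day 2 against 4 hours, and calls over all peaks moved too. Over all KDM5A peaks 53 were higher and 0 lower at 4 hours against day 0 (133 and 60 after quantile normalization, 13 and 0 in edgeR), 119 and 32 at day 2 against day 0 (280 and 542, 515 and 44), and 108 and 423 at day 2 against 4 hours (724 and 1435, 310 and 282), and 0 were called in each contrast without the trend.

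Signs turned only for RNA values that were not called. Quantile normalization turned Pparg in shLuc at 4 hours to -0.109. With 1 library left out the ranges at day 0 were -0.053 to 0.788 for Pparg, -0.452 to 0.131 for Cebpg and -0.053 to 0.467 for Stat5a between hairpins, and -0.061 to 0.188 for Stat5b at day 2. Against day 0, Pparg at 4 hours ran from -0.226 to 0.356 in shLuc and -0.138 to 0.703 in shKdm5ABC. The change of the knockdown difference ran from -0.203 to 0.638 for Pparg and -0.407 to 0.175 for Cebpg at 4 hours, and from -0.404 to 0.065 for Cebpb at day 2. Over the single-member values carried through the alternatives, 890 of 975 kept direction and call. Single KDM5A peaks and H3K4me3 differences that were not called were left out of these alternatives, a choice made after seeing the data in which some near 0 changed sign. With only the compared groups, RNA calls over all transcripts between hairpins fell to 11, 0 and 25.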
